A study of Homo sapiens with 13 samples.

Results

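The AP-1 family genes examined here were JUN, JUNB, JUND, FOS, FOSL1, FOSL2 and ATF3. The members were all peaks whose summit lay within 100 kb of the start of 1 of these 7 genes, in the peak lists of YAP, TAZ, TEAD4 and JUN on build hg19. The rule used position only and no measured strength. It gave 100 of the 50467 listed peaks, and joining peaks that overlapped by at least 1 bp gave 55 of the 28100 regions of the series. The data were chromatin immunoprecipitation and sequencing (ChIP-seq) of MDA-MB-231, an established human breast cancer cell line grown without any treatment named in the labels. Antibodies to YAP, TAZ (encoded by WWTR1), TEAD4 and JUN gave 2 libraries each, and IgG gave 2 rabbit and 3 mouse control libraries, with the rabbit IgG used as the control for YAP and TAZ and the mouse IgG for TEAD4 and JUN. The labels name 1 list for both replicates of a factor, so no value below has a replicate spread and no test over samples could be made. All cells were of 1 line, and the lists hold binding and not expression.

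AP-1 is a dimer of basic leucine zipper proteins, usually a Jun protein with a Fos protein or with a member of the ATF group. It binds the palindrome TGANTCA and switches on genes of growth, invasion and stress. Several of its own genes are immediate early genes, and the JUN gene is a textbook case of a gene whose promoter is bound by its own product. YAP and TAZ are coactivators that the Hippo pathway restrains, and they reach DNA through TEAD proteins.

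JUN was listed at the start of 6 of the 7 AP-1 genes examined, and none of the other 3 factors was. Here a summit within 1 kb counts as at the start, and the exception was ATF3, at the 1 start examined for it. Over the genome, 1.65% of 2-kb windows held a JUN summit. Those windows lie on a fixed grid over all chromosomes, and no set of hg19 gene starts was used here, so the figure is a background for positions and not for promoters. The matching shares were not computed for YAP, TAZ and TEAD4. Their lists are shorter, at 7709, 9798 and 8406 peaks beside 24554 for JUN. No YAP, TAZ or TEAD4 summit lay within 1 kb of any of the 7 starts, and no peak of these 3 lists overlapped any of the 6 JUN peaks. The nearest of their 49 peaks was a TEAD4 peak 2207 bp from the start of JUNB. Over the whole JUN list, 33.7% of peaks shared a region with YAP, TAZ or TEAD4, so most had none of them. The share for JUN peaks at gene starts in general was not computed. Beyond the starts, regions with YAP, TAZ, TEAD4 and JUN together were found near JUN, FOSL1 and ATF3 and near none of the other 4 genes.

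**Figure D1:**
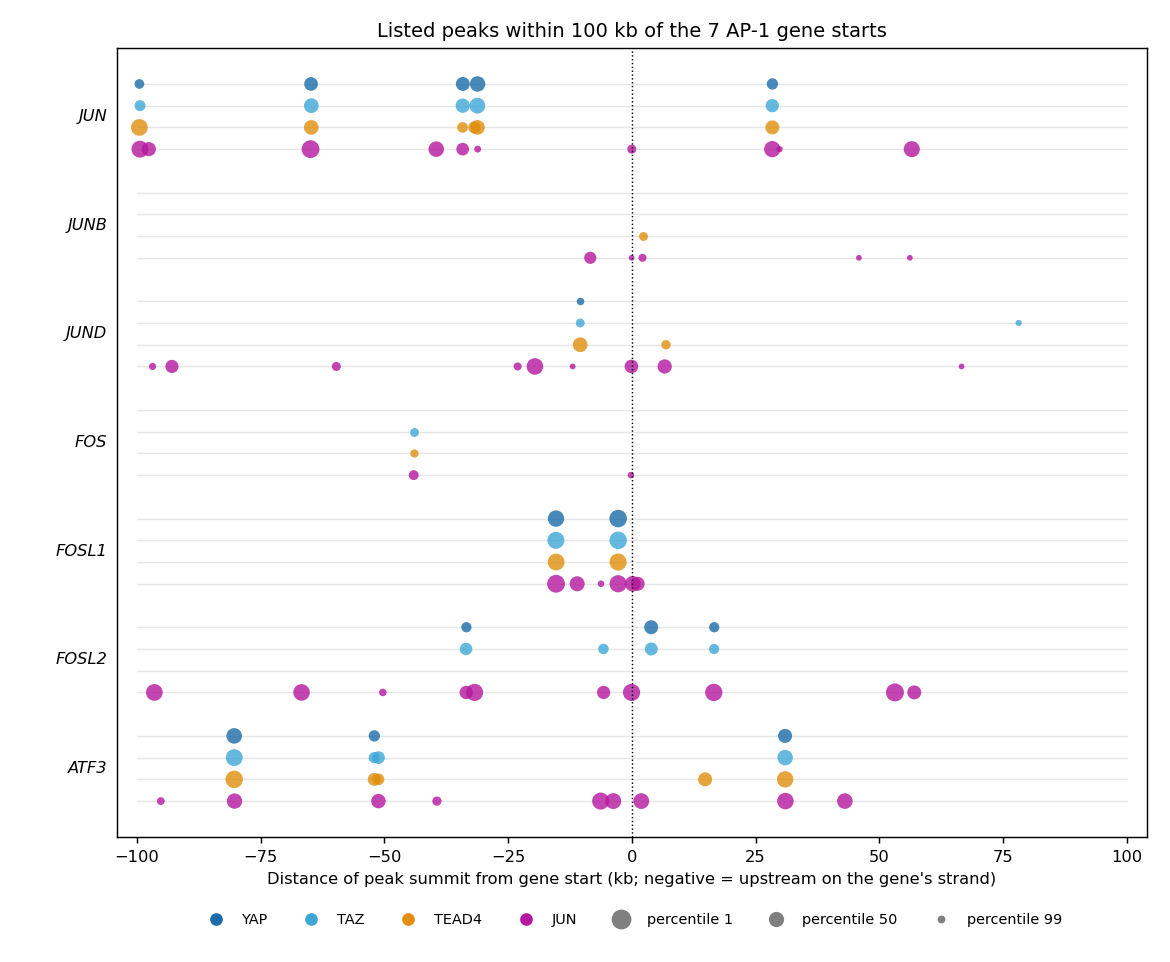
Summits of all 100 listed peaks by their distance in kb from the gene start (x axis, negative upstream on the strand of the gene), with 4 rows per gene for the YAP, TAZ, TEAD4 and JUN lists; larger points are more enriched within their own list. JUN points sit at the start of 6 genes, and the rows of the other factors are empty there.

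The 6 JUN peaks at the starts differed widely in strength. Strength is given as the fold enrichment of each peak over IgG, which is the authors' own value, and as its rank within its list, where rank 1 and a low percentile mean the most enriched. At JUN, the founding Jun subunit, the start lies at position 59249785 of chromosome 1 on the minus strand. The JUN summit fell 4 bp from it, in a peak reaching from 718 bp upstream to 360 bp downstream. That peak was enriched 8.72-fold and ranked 20417 of 24554, or percentile 83.2. At JUNB, a Jun protein that often acts more weakly than JUN, the summit lay 37 bp upstream of the start (chromosome 19, 12902310). Its 5.33-fold enrichment ranked 24525, among the lowest of the list. At JUND, the Jun protein found in most resting cells, the summit lay 75 bp upstream (chromosome 19, 18392466), with 12.0-fold enrichment and percentile 47.4. The Jun starts thus ran from the middle to the very end of the JUN list.

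The Fos starts also ran from near the top to near the end of the list. At FOS, the Fos subunit induced by serum and growth factors, the summit lay 168 bp upstream of the start (chromosome 14, 75745481), with 7.14-fold enrichment and percentile 96.6. At FOSL1, which encodes FRA-1, a Fos protein known for its high level in invasive breast cancer cells, the summit lay 186 bp downstream (chromosome 11, 65668044), with 14.6-fold enrichment and percentile 28.3. At FOSL2, which encodes FRA-2, the summit lay 48 bp upstream (chromosome 2, 28615779), and its 19.1-fold enrichment at percentile 10.1 was the best of the 6. ATF3, a stress-induced partner of Jun proteins, had no JUN summit within 1 kb of the start used here (chromosome 1, 212738676). Its nearest JUN summits lay 1924 bp downstream and 3750 bp upstream, with 15.0-fold and 15.2-fold enrichment. ATF3 is known to be transcribed from more than 1 promoter, and only 1 start was examined.

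The order of these peaks changed with the measure. By −log10 p instead of enrichment, the JUN start peak moved to percentile 34.2, that of JUND to 17.3 and that of FOSL1 to 18.5. The FOSL2 start peak stayed near, at 12.6, and those of JUNB and FOS remained low, at 86.7 and 99.1. All 6 were wider than the list's median of 730 bp, from 790 bp at FOS to 1606 bp at FOSL2. With the JUN list shortened to its 7709 lowest p-values, the number of genes with a JUN summit at the start fell to 3, namely JUND, FOSL1 and FOSL2.

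A missing entry in these lists does not by itself show an empty site. The peak names carry numbers that ascend along each chromosome, and if these numbers count all candidates, the lists hold 21.8% of the candidates of YAP, 22.4% of TAZ, 29.9% of TEAD4 and 25.4% of JUN. Between the listed TEAD4 peaks on either side of the JUND start (10.4 kb upstream and 6.91 kb downstream) no number was missing. The same held for the TEAD4 peaks on either side of the FOS start, which lay 44.1 kb upstream and 174 kb downstream. At the JUN start, between listed peaks about 31 kb upstream and 28 kb downstream, 7 YAP, 8 TAZ and 3 TEAD4 numbers were missing, so up to that many unlisted candidates may lie in that interval. Between the JUN summits on either side of the ATF3 start, no JUN number was missing. If the numbers count all candidates, no unlisted candidate lies in the intervals where no number was missing. Signal too weak to be a candidate cannot be seen in the lists.

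Promoter letters are shown for JUN, JUND, FOS and FOSL2, which had JUN listed at their starts, and for ATF3, which did not at the start used here. The window of JUNB, which also had JUN at its start, held no match and is not shown. Promoter windows of 6 of the 7 genes, all but FOSL1, were found in the RefSeq table of build GRCh38.p14, with 2 windows for ATF3. For FOSL2 a short site is shown, and for the others the 250 bases before the RefSeq start, 5′ to 3′ on the strand of the gene, with motif matches in capitals. RefSeq's starts on GRCh38 need not be the same base as the hg19 starts, so distances to the peaks are approximate.
JUN (chr1:58784048-58784297, minus strand): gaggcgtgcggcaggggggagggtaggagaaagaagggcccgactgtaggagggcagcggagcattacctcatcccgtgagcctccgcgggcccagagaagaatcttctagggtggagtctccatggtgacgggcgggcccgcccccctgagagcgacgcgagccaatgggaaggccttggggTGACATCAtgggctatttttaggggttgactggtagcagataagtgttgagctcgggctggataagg
JUND (chr19:18281623-18281872, minus strand): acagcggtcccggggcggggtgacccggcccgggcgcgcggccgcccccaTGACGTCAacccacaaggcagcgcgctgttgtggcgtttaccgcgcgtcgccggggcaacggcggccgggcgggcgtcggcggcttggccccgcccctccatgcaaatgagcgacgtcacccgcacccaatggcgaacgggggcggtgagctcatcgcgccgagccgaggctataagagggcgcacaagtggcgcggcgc
FOS (chr14:75278578-75278827, plus strand): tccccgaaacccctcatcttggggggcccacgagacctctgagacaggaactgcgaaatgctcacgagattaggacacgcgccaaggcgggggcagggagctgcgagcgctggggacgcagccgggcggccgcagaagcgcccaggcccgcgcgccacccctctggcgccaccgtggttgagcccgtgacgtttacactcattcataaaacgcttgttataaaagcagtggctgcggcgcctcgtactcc
ATF3 (chr1:212565157-212565406, plus strand): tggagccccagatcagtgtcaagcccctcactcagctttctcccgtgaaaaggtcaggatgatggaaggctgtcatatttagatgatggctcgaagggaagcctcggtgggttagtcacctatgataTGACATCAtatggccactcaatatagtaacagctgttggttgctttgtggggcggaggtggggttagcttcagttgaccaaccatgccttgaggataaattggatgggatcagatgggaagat
FOSL2, a 25-base site (chr2:28392853-28392877, plus strand): ccattgtagTGACTCAtctcgggca

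Motifs were searched on both strands of the 300-base windows, which run from 250 bases before to 50 after the start. The JUN window held the 8-base element TGACATCA at 67 to 60 bases before its start, and the first ATF3 window held the same letters at 123 to 116 bases before. This element was present in 2.61% of the 35116 windows in the table. JUND held the cyclic AMP response element TGACGTCA at 200 to 193 bases before its start (1.85% of windows), and FOSL2 held TGACTCA, a match to TGANTCA, 5 to 11 bases after it (7.71% of windows). The JUNB and FOS windows, and the second ATF3 window, held none of these. GGAATG, the core letters bound by TEAD proteins, was in none of the 7 windows and in 14.0% of all windows. The matched elements do not overlap one another. No match says only that these letters are not in this window. Which of the ATF3 windows holds the hg19 start used here was not determined.

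Every one of the 7 genes had a JUN peak within 100 kb, where 56.9% of 200-kb windows on the fixed grid held one. Their JUN peaks numbered 10 near JUN, 5 near JUNB, 9 near JUND, 2 near FOS, 6 near FOSL1, 10 near FOSL2 and 9 near ATF3, against a median of 1 and a 90th percentile of 5 per grid window. YAP was listed near 5 genes (31.2% of windows), TAZ near 6 (35.6%) and TEAD4 near 6 (32.6%). JUNB and FOS had no YAP peak, JUNB had no TAZ peak, and FOSL2 had no TEAD4 peak within 100 kb. Grid windows include stretches with no gene, and windows around these starts hold other genes as well, so peaks cannot be assigned to a gene by distance alone.

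Of the 55 regions, 10 held all 4 factors, or 18.2% (exact Clopper-Pearson 95% interval 9.08 to 30.9, counting error only), beside 15.2% of all regions. JUN alone accounted for 35 regions, or 63.6% (49.6 to 76.2), beside 58.0% of all. JUN shared its region with at least 1 of the other factors at 16 of 51 JUN peaks, or 31.4% (19.1 to 45.9), beside 33.7% over the JUN list. All 3 shares lie close to those of the whole series. The share of regions with all 4 factors rested in part on the JUN gene, and was 11.1% without it. It was 10.8% where joining needed a reciprocal overlap of 50%, a rule for which the share over all regions was not computed. Within 20 kb of the starts it was 8.33%. JUN with 1 or 2 of the other factors accounted for 6 regions, or 10.9% beside 14.1% of all. JUN occurred with YAP and TAZ at 2, with TEAD4 at 2, with TAZ at 1 and with TAZ and TEAD4 at 1. Over all regions these sets made up 4.44%, 2.45%, 3.98% and 2.04%. JUN was not listed in 4 regions, or 7.27% beside 12.7% of all, a share that rests on few regions and for which no interval was computed.

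**Figure D2:**
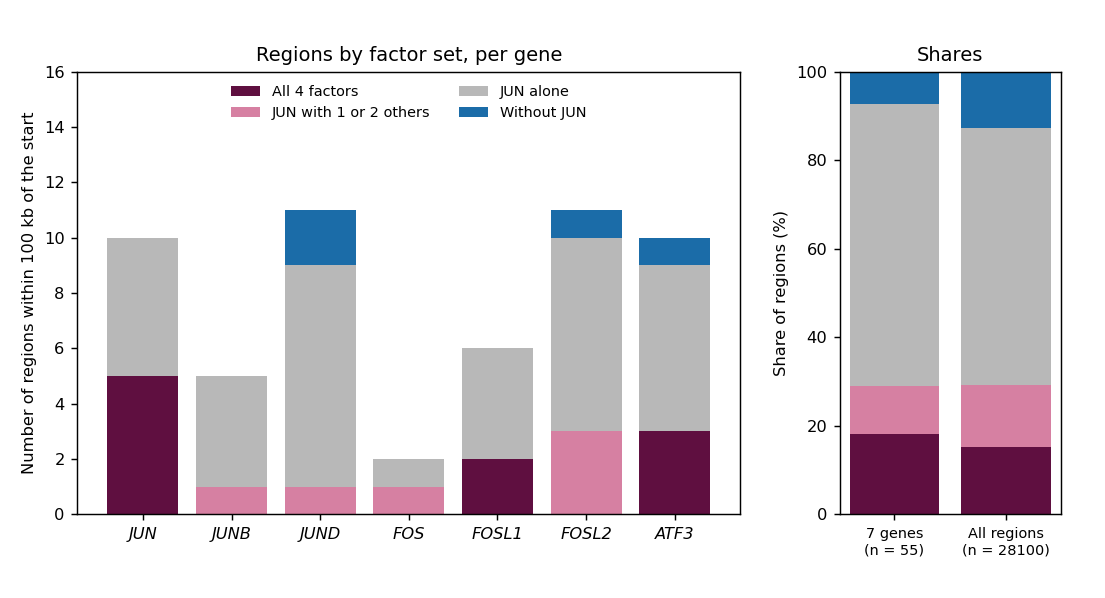
Number of regions within 100 kb of each gene start by factor set (left, stacked bars), and the share in % of each set among the 55 regions near the 7 genes and among all 28100 regions (right). Regions of all 4 factors occur near JUN (5), FOSL1 (2) and ATF3 (3), and the 2 share bars are alike.

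The shared sites were unevenly spread over the genes. At least 1 region of all 4 factors lay near 3 of the 7 genes, where 20.3% of grid windows held one. JUN had 5 of the 10, ATF3 had 3 and FOSL1 had 2. Among grid windows, 2.02% held 3 or more and 0.273% held 5 or more. JUNB, JUND, FOS and FOSL2 had 5, 11, 2 and 11 regions and none of this kind. Of the 10, 8 lay upstream of the gene start, as did 35 of all 55 regions.

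FOSL1 carried the strongest of these regions by the mean of their rank percentiles. The region at chr11:65670387-65671412, centred 2.76 kb upstream of the start, had 14.7-fold YAP, 14.0-fold TAZ, 12.4-fold TEAD4 and 19.0-fold JUN enrichment. YAP stood at rank 485 of its list, TAZ at 677, TEAD4 at 952 and JUN at 2557, and the lowest of these places was percentile 11.3. Its 4 summits fell within 14 bp. The other, at chr11:65682450-65684857 and 15.3 kb upstream, had 10.3-fold YAP, 11.5-fold TAZ, 11.4-fold TEAD4 and 23.8-fold JUN enrichment, with JUN at rank 661 and summits within 44 bp. Between it and the start lay 2 JUN peaks without the other factors, 11.0 kb and 6.22 kb upstream, at percentiles 34.2 and 96.4. Of the 7 genes, FOSL1 had the listed YAP and TAZ summits nearest to its start, 2756 and 2754 bp upstream. FOSL2 came next, with YAP and TAZ summits 3913 and 3939 bp downstream of its start. No YAP, TAZ or TEAD4 peak was listed downstream of the FOSL1 start within 100 kb.

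The JUN gene was surrounded by 5 regions of all 4 factors, none closer than 28 kb. Going downstream, they lay 99.4, 64.8, 34.2 and 31.3 kb upstream and 28.4 kb downstream of the start. At chr1:59314141-59315582, 64.8 kb upstream, JUN was enriched 24.0-fold, rank 607 of its list, while YAP (7.50-fold), TAZ (7.93-fold) and TEAD4 (8.21-fold) stood at percentiles 47.1, 37.2 and 37.4. JUN had the best place of the 4 there and the lowest in the region 31.3 kb upstream, with YAP at percentile 30.0 (9.01-fold), TAZ at 26.0 (9.15-fold), TEAD4 at 37.7 (8.19-fold) and JUN at rank 23317 of 24554 (7.43-fold). At the farthest, 99.4 kb upstream, TEAD4 (11.1-fold, percentile 16.1) and JUN (18.1-fold, 13.2) ranked high, whereas YAP (5.88-fold) and TAZ (5.93-fold) were at percentiles 79.0 and 70.0. Its summits lie within 1 kb of the 100-kb limit. The remaining 2 regions had JUN at percentile 56.3 (34.2 kb upstream) and 21.0 (28.4 kb downstream). JUN without the other factors was listed at 5 places, the start included, and the best ranked of these lay 56.6 kb downstream (15.7-fold, percentile 22.8). Whether any of these sites acts on the JUN gene was not tested.

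ATF3 had 3 regions of all 4 factors. The strongest, at chr1:212657284-212659965 and 80.3 kb upstream, had 14.2-fold TEAD4 (rank 590), 11.2-fold TAZ (rank 1388), 9.21-fold YAP (rank 2179) and 14.2-fold JUN (rank 7546), with summits within 70 bp. A region 31.0 kb downstream had 16.7-fold JUN and 10.5-fold TEAD4 at percentiles 18.0 and 19.5, with summits within 66 bp. The third, 51.6 kb upstream, joined 6 peaks and proved to hold a pair of sites. The YAP summit lay 52017 bp from the start, beside a TAZ summit at 52036 and a TEAD4 summit at 52020, and the JUN summit lay at 51180, beside a TEAD4 summit at 51172 and a TAZ summit at 51165. A TEAD4 peak without the others lay 14.8 kb downstream (7.63-fold). JUN without the others was listed at 6 places, among them 6.29 kb upstream (18.5-fold, percentile 11.8) and 43.0 kb downstream (14.7-fold, 28.2). Whether any of these places lies at another ATF3 promoter was not determined.

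**Figure D3:**
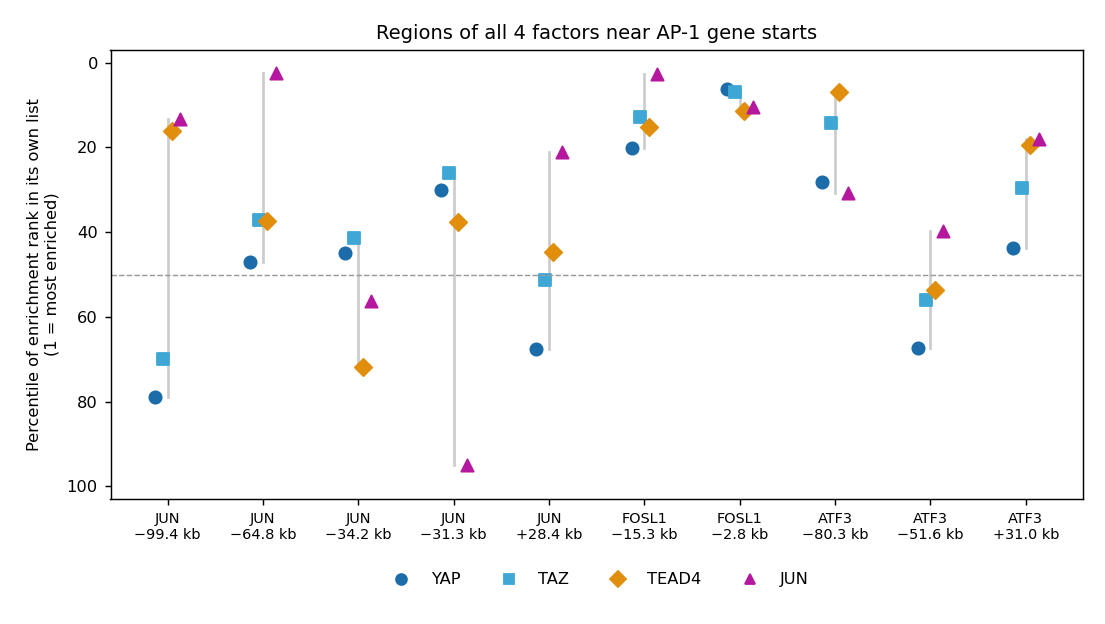
Percentile of enrichment rank within its own list (y axis, 1 is the most enriched, dashed line at 50) of the 4 factors at the 10 regions of all 4 factors, labelled by gene and distance from the start. The FOSL1 region 2.8 kb upstream is high in all 4 lists, and the JUN region 31.3 kb upstream is low in the JUN list only.

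FOSL2 had many sites of JUN, YAP and TAZ and no listed TEAD4 site. Within 100 kb it had 10 JUN peaks, 3 YAP peaks and 4 TAZ peaks, but the nearest listed TEAD4 summits lay 124 kb upstream and 204 kb downstream. In that interval 16 TEAD4 numbers were missing, so unlisted TEAD4 candidates may lie there. YAP and TAZ were listed with JUN 33.4 kb upstream (YAP 6.06-fold, TAZ 6.49-fold, JUN 11.7-fold) and 16.6 kb downstream (YAP 6.06-fold, TAZ 5.68-fold, JUN 19.8-fold). They were listed together without JUN 3.93 kb downstream (YAP 7.73-fold, TAZ 6.74-fold), and TAZ with JUN 5.71 kb upstream. The most enriched JUN peak near any of the 7 genes lay 53.2 kb downstream of the FOSL2 start, at chr2:28668494-28669224. It was enriched 26.6-fold, rank 267 of its list, and held no other factor. In all, 7 of the 10 JUN peaks near FOSL2 were in the top 50% of the list.

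By enrichment, most JUN peaks near JUNB, JUND and FOS stood in the lower part of the list. By −log10 p this held for JUNB and FOS and not for JUND. Near JUNB the best-ranked region was a JUN peak without the other factors 8.39 kb upstream (10.7-fold, percentile 60.5). Its JUN peaks had a median enrichment of 5.97-fold, and 4 of the 5 stood past percentile 88. By −log10 p, 2 of these 5 were in the top 50%, with the peak 8.39 kb upstream at percentile 20.3. The TEAD4 peak there (5.45-fold, percentile 84.1) shared a region with JUN 2.19 kb downstream of the start. Near JUND, 3 of 9 JUN peaks were in the top 50% of the list, the best being 19.6 kb upstream (16.9-fold, percentile 17.2). By −log10 p, 6 of the 9 were, with a median percentile of 38.1. YAP, TAZ and TEAD4 shared a region 10.4 kb upstream of JUND, with 5.16-fold, 5.25-fold and 8.19-fold enrichment, and JUN was not listed in it. TEAD4 and JUN shared a region 6.78 kb downstream, with summits 267 bp apart. FOS had only 2 regions: its start, and a site 44.1 kb upstream with TAZ (5.27-fold), TEAD4 (5.25-fold) and JUN (9.23-fold), each past percentile 77. The nearest listed YAP summits to FOS lay 297 kb upstream and 174 kb downstream. By order in RefSeq, FOS is followed by JDP2 and BATF, and ATF3 lies near BATF3, all basic leucine zipper genes. These, and FOSB, BATF2, ATF2, ATF7, MAF, MAFF, MAFG and MAFK, were not analysed here, since no hg19 annotation was used.

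**Figure D4:**
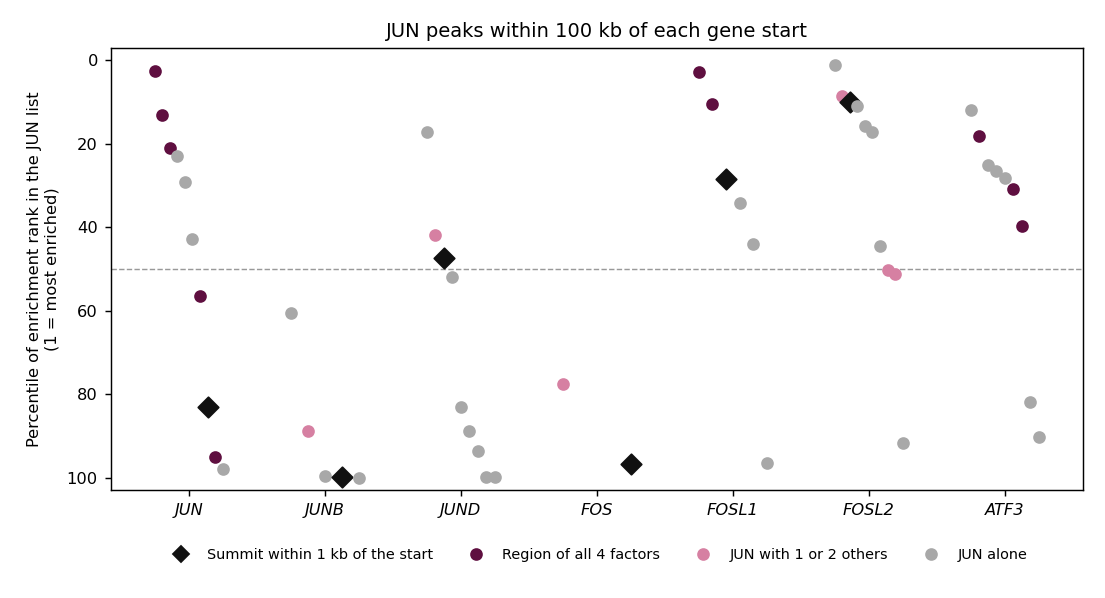
Percentile of enrichment rank in the JUN list (y axis, 1 is the most enriched, dashed line at 50) for the 51 JUN peaks near the 7 genes; diamonds mark summits within 1 kb of the start, and colours the factors in the same region. The start peaks range from percentile 10.1 at FOSL2 to 99.9 at JUNB.

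As a group the 100 peaks were of ordinary strength for their lists by enrichment, whereas the JUN peaks ranked higher by −log10 p. The median percentile was 45.9 for the 14 YAP peaks (95% order-statistic interval 28.3 to 75.3), 54.9 for the 18 TAZ peaks (29.6 to 73.7), 44.3 for the 17 TEAD4 peaks (19.5 to 65.8) and 44.0 for the 51 JUN peaks (28.3 to 60.5), where a whole list has 50. These intervals take peaks as independent, although peaks near 1 gene share their locus. The JUN peaks were wider, with a median of 1018 bp beside 730 bp over the list. Ranked by −log10 p, their median percentile was 28.0 (19.5 to 45.5). By gene, the median JUN enrichment was 17.1-fold near FOSL2, 14.7-fold near ATF3, 14.2-fold near FOSL1, 13.5-fold near JUN, 8.72-fold near JUND, 8.19-fold near FOS and 5.97-fold near JUNB. In the regions of all 4 factors the 10 JUN peaks had a median of 16.4-fold and a median percentile of 19.5 (2.69 to 56.3). The 35 JUN peaks without other factors had 12.0-fold and 47.4 (28.3 to 88.7). These intervals overlap, and the same contrast over the whole JUN list was not computed.

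Where factors overlapped near these genes, most summits lay within 100 bp of each other. All 14 YAP peaks overlapped a TAZ peak, beside 92.4% of the YAP list. JUN was overlapped by 12 of them (85.7% beside 77.0%) and TEAD4 by 11 (78.6% beside 74.6%). Of the 17 TEAD4 peaks, 15 overlapped JUN, or 88.2% (63.6 to 98.5) beside 68.3% of the TEAD4 list, and 11 overlapped YAP, or 64.7% beside 68.7%. These shares rest on few peaks, and the background lay inside the interval of every pair computed. The TEAD4 and JUN summits lay a median of 39 bp apart (15 pairs, 10 of them within 100 bp, range 6 to 840), beside 31 bp over all such pairs. YAP and JUN summits lay a median of 50 bp apart (12 pairs, range 6 to 837), beside 27 bp. The interval of that median, 15 to 98 bp, held the 27 bp, so no difference was shown. TAZ and JUN summits lay a median of 31 bp apart (15 pairs, range 1 to 856), also beside 27 bp. The upper ends 840, 837 and 856 all came from the JUN peak in the ATF3 region 51.6 kb upstream. A wide JUN peak can overlap more than 1 peak of another list, as there, so pairs are not all separate sites. YAP and TEAD4 summits were 15 bp apart (11 pairs, range 2 to 56), beside 16 bp. In 9 of the 10 regions of all 4 factors the most enriched summits of the 4 lists lay within 200 bp, the exception being the double site upstream of ATF3 with 855 bp. The median span of these summits was 61 bp, beside 48 bp over all 4284 regions of all 4 factors. The share within 200 bp over all such regions was not computed.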

How the data were processed

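ChIP-seq libraries of YAP, TAZ, TEAD4 and JUN (2 each) and IgG (5) were grouped by the factor or antibody in the labels. The submitters' processing notes name MACS2 2.0.10, Bowtie 0.12.7, CASAVA and SAMtools, and build hg19. Peak calling by the authors was done against pooled IgG, per the labels, within the IDR framework, which keeps peaks that recur between replicates, and the lists carry the label 0.01. The deposited lists give per peak a fold enrichment over IgG (a ratio), a −log10 p-value and a −log10 q-value, the last not used. The deposited score is 10 times the −log10 p-value, cut to a whole number, and was not used. Depth is unknown here, so it gives no precision.

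Enrichment depends on the local IgG level, and strength was compared only within a list, by rank. YAP and TAZ differ from TEAD4 and JUN in IgG, which cannot be told apart from the factor. The names of TAZ peaks carry a tag with both YAP and TAZ, and those of JUN peaks a replicate tag unlike that of the other lists. The sources used here do not give the meaning of either.

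Gene starts came from the rule for these genes. Peaks were joined with Python 3.11.15, pandas 2.3.3 and scipy 1.17.1. The joining was tested on simulated sites set far apart and on a short chain of peaks, and crowded sites were not simulated. The 200-kb and 2-kb windows ran on a grid from the first to the last peak of each chromosome. Intervals are for counting error only. The genes, lists and descriptions were chosen with earlier results of these data known. Genes and regions named are the 7 members with the region nearest the start, those of all 4 factors and the strongest. Other regions were picked for naming once their values were known. Protein sequences, and likeness of other genes to these, were not analysed here. Alternatives were distances of 50 and 20 kb, shorter lists, other joining rules, ranks by −log10 p or width, and leaving out each gene.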

Additional observations from a re-analysis of the deposited data

How the results depend on the processing

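Across 11 results and 141 alternative values, 132 kept inside the reported 95% interval or, where the result is a count, within a factor of 1.5. None of the 9 that moved came from leaving out 1 of the 7 genes. For the counts this was fixed beforehand, since no single gene could change them by more than that factor. The number of genes with JUN at the start also could not change with the distances of 50 and 20 kb. The interval of the share of regions with all 4 factors is wide. Inside it, the share was 11.1% without the JUN gene, under the 15.2% of all regions instead of above it. With a reciprocal overlap of 50% it was 10.8%, and the share over all regions was not computed under that rule. Within 20 kb of the starts there were 24 regions instead of 55, 2 of them with all 4 factors (8.33%), near 1 gene instead of 3. With lists of equal length (7709 peaks), JUN summits lay at 3 starts instead of 6, and the median percentile of the JUN peaks was 65.9. The stronger 50% of each list gave a median of 80.3 for YAP. Both kinds of shortening remove the weaker peaks and recount the ranks. Ranked by −log10 p the median for JUN was 28.0, and ranked by width it was 22.7 for JUN and 25.8 for YAP; the cause was not tested. A summit within 2 kb added ATF3 to the starts with JUN, for 7 of 7. No paired analysis was possible because replicates have no values of their own in the lists, and for the same reason leaving out a replicate was not run. Depth is unknown, so what it limits cannot be stated, and the absence of a listed peak does not show that a factor is absent.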
